A study of Mus musculus with 10 samples.

Results

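Progesterone acts through the nuclear receptor encoded by Pgr and also through proteins held in membranes, and the transcripts of 6 such membrane progesterone receptors were compared here between mouse granulosa cells with and without functional Pgr. The genes were taken by name: Pgrmc1 and Pgrmc2 of the membrane-associated progesterone receptor (MAPR) family, and Paqr5, Paqr6, Paqr7 and Paqr8 of the progestin and adipoQ receptor (PAQR) family. Each was read by 1 probe set, so 6 of the 35557 probe sets on the array belonged to them, and 0 were shared with another gene. They stand among 19938 genes tested.

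In PRKO animals lacZ was inserted into both Pgr alleles, and in the PR+/- controls into 1 allele, so every animal had at least 1 disrupted allele. The mice were prepubertal, 21 to 23 days old, and were primed with 5 IU of equine chorionic gonadotropin, which drives follicle growth. After 44 to 47 h they received 5 IU of human chorionic gonadotropin (hCG), which triggers ovulation. Antral follicles were punctured 8 h after hCG. Each of the 5 pools per genotype held granulosa cells of 3 animals and was hybridized to 1 whole-transcript array. The question was whether the receptors outside the nucleus were raised where the nuclear receptor was missing.

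The families work differently. PGRMC1 and PGRMC2 are small heme-binding proteins with a cytochrome b5-like domain, sit mainly in the endoplasmic reticulum and bind cytochrome P450 enzymes. PGRMC1 has been studied in granulosa cells as a mediator of the antiapoptotic action of progesterone. The PAQR proteins cross the membrane several times, and PAQR7, PAQR8, PAQR5 and PAQR6, also called mPR alpha, beta, gamma and delta, have been linked, mostly in fish and human cells, to rapid progestin signalling through G proteins.

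The arrays had medians between 6.48 and 6.55 on the log2 scale and pairwise correlations from 0.973 to 0.992. All 8 measured granulosa markers of 10 listed were above background, taken as 5.86, the 95th percentile of 1027 olfactory receptor genes, and so were all 7 oocyte markers. The mean log2 level of the oocyte markers ran from 8.21 to 8.97 in PR+/- and from 8.16 to 8.98 in PRKO, so transcripts of oocytes were present in pools of both genotypes. The 3 measured theca markers of 4 listed were above background as well. Their mean ran from 8.43 to 8.82 in PR+/- and from 8.40 to 8.76 in PRKO. Both genotype means were below background for 1 of 5 endothelial, 3 of 6 immune, 0 of 4 epithelial and 0 of 1 erythroid markers. Transcripts named here as markers of other cell types were thus present too. In such bulk pools, fewer cells of a type and less RNA per cell cannot be told apart. Of 26 measured markers of theca, oocyte, endothelial, immune, epithelial and erythroid cells, 0 differed over all genes in limma and 2 had an unadjusted p under 0.05. The shares of all genes were 2.46% and 13.0%.

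The start regions of the receptor genes are shown first because the comparison turns on a hormone-activated transcription factor. RefSeq promoters (GRCm38.p6, from 250 bases before to 50 after a start) were found for all 6 genes, with 8 start sites in all. They were searched for AGAACA and its complement TGTTCT, the hexamer that nuclear progesterone and glucocorticoid receptors recognise, on both strands. It stood in 3 of the 8 windows, those of Pgrmc1 and both starts of Paqr8, against 19.0% of all 32851 windows. The Pgrmc1 window, with the smallest p of the 6, and the upstream Paqr8 window are printed in lower case with the hexamer in capitals. Beside them is that of Gnao1, the pathway gene with the largest difference below, which held none. The windows of Adipor2 and Scap, which also differed below, were searched as well. Adipor2 held none, and both Scap windows, which overlap, held the same 1.

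Pgrmc1 promoter, chrX:36597943-36598242, plus strand: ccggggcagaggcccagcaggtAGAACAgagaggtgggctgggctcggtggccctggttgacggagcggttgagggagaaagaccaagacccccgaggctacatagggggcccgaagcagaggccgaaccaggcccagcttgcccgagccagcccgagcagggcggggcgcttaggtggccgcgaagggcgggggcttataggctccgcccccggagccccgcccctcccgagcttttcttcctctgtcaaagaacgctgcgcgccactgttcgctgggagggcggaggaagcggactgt
Paqr8 upstream promoter, chr1:20890298-20890597, plus strand: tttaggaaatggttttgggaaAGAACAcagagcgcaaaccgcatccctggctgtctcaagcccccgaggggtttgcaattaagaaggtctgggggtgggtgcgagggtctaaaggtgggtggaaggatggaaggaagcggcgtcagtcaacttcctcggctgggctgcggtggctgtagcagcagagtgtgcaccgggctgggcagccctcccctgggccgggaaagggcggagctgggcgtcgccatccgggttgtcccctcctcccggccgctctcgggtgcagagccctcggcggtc
Gnao1 promoter, chr8:93810588-93810887, plus strand: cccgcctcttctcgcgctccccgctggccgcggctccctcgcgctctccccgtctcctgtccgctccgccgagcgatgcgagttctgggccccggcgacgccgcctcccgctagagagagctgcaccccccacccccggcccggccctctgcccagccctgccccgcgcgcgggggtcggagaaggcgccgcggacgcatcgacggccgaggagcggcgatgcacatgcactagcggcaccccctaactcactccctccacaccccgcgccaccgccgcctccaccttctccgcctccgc

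These are letter matches, and no binding was measured. The share of G and C was above the median of all windows, 52.7%, in 6 of the 8 receptor windows, from 62% at Paqr6 to 69.3% at Pgrmc2, and below it at the upstream start of Paqr7 (52.3%) and the downstream start of Paqr8 (47.7%). It was 76.3% at Gnao1. The GC box GGGCGG, which overlaps neither hexamer and was counted on both strands as CCGCCC too, stood in 7 of the 8 receptor windows, from 1 time at both Paqr8 starts to 5 times at Pgrmc1, and in 35.7% of all windows.

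None of the 6 membrane receptors differed between the genotypes past the threshold, set at 0.05 for the limma p after Benjamini-Hochberg adjustment across all tested genes. By the same rule 2.46% of all genes differed, and 0.752% were higher in PRKO. At an unadjusted p under 0.05, 1 of the 6 stood out, Pgrmc1, against 13.0% of all genes. In 0 of the 6 did the pools of the genotypes separate without overlap, against 4.42% of all genes. Of the 6 log2 differences (PRKO minus PR+/-), 4 were above and 2 below 0, with a median of 0.04 beside -0.02 over all genes. With 5 pools a genotype, the 95% intervals of all 6 differences lay within 1.5-fold either way, as did those of 95.3% of all genes. The highest upper bound was a 1.36-fold rise (Paqr7) and the lowest lower bound a 1.30-fold fall (Paqr6).

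**Figure D1:**
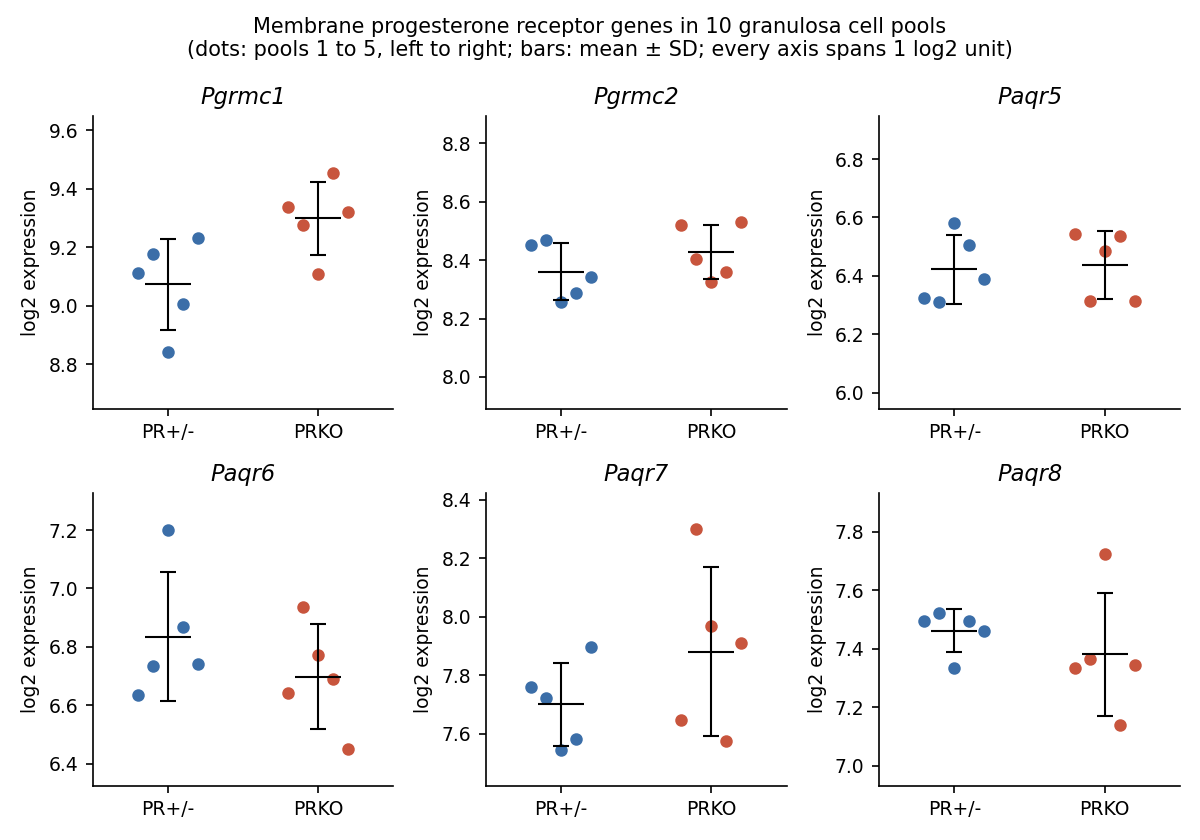
Log2 expression of the 6 membrane progesterone receptor genes in each of 5 PR+/- (blue) and 5 PRKO (red) pools, with black bars for the mean and SD of each genotype, all axes spanning the same range. The pools of the genotypes overlap in every panel, and Pgrmc1 has 4 of 5 PRKO pools above all PR+/- pools.

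Pgrmc1 came nearest to a difference. PR+/- pools 1 to 5 read 9.11, 9.18, 8.84, 9.00 and 9.23 on the log2 scale, and PRKO pools 1 to 5 read 9.34, 9.27, 9.11, 9.46 and 9.32. Thus 4 of 5 PRKO pools lay above every control, PRKO pool 3 lay inside their range, and PR+/- pool 3 was the lowest of all 10. The means were 9.07 ± 0.15 and 9.30 ± 0.13 (SD, n = 5 pools each), a difference of 0.23 (SE 0.09), or 1.17-fold with a 95% interval of 1.03 to 1.33. The adjusted p from limma was 0.278, and Pgrmc1 held rank 1613 by p among all genes. An exact two-sided permutation test over the pools gave p = 0.0397, where the smallest p this design allows is 0.00794, and an adjusted p over all genes of 0.350. No gene could pass in that test, as even the smallest p had an adjusted p of 0.180. Without PR+/- pool 3 or 4 or PRKO pool 4, the unadjusted p in limma rose to 0.0630, 0.0508 and 0.0613. With the array background as a covariate, a setting chosen after the data were seen, the difference was 0.15 and the unadjusted p in limma 0.0886. Of the 8 granulosa markers, 7 had a difference above 0, with a median of 0.27 over the 8. The threshold was passed by 0 of them and by 2.46% of all genes. An unadjusted p under 0.05 in limma was found for 6 of the 8, against 13.0% of all genes. These were Foxl2, Amhr2, Inha, Inhba and Hsd17b1, with differences above 0, and the follicle-stimulating hormone receptor Fshr, with a difference of -0.49. Their part in the Pgrmc1 difference was not tested.

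Pgrmc2, the paralogue of Pgrmc1, was the steadiest of the 6. Its values were 8.45, 8.47, 8.25, 8.29 and 8.34 in PR+/- pools 1 to 5 and 8.52, 8.40, 8.33, 8.36 and 8.53 in PRKO pools 1 to 5. PRKO pools 1 and 5 stood slightly above all controls and the other pools intermingled. The log2 difference was 0.07 (SE 0.07, 95% interval -0.09 to 0.22, limma adjusted p = 0.761). Its residual SD of 0.0943 within genotypes was below that of the other 5 receptors, and 16.0% of all genes varied less.

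Among the 4 PAQR genes of the set, Paqr7 (mPR alpha) had the highest difference and the widest spread within genotypes. Pools 1 to 5 of PR+/- read 7.76, 7.72, 7.54, 7.58 and 7.90, and those of PRKO 7.65, 8.30, 7.97, 7.58 and 7.91. PRKO pool 2 was the highest of the 10, while PRKO pools 1 and 4 lay among the controls. The means were 7.70 ± 0.14 and 7.88 ± 0.29 (SD, n = 5 pools each). The log2 difference of 0.18 (SE 0.12, limma adjusted p = 0.593) was 0.08 without PRKO pool 2. With 1 pool left out it ran from 0.08 to 0.26.

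Paqr8 (mPR beta) had the opposite sign. It read 7.49, 7.52, 7.33, 7.49 and 7.46 in PR+/- pools 1 to 5, and 7.33, 7.36, 7.72, 7.14 and 7.34 in PRKO pools 1 to 5. The controls lay close together, whereas the PRKO pools held both the highest (pool 3) and the lowest (pool 4) value of the 10. The log2 difference was -0.08 (SE 0.09, 95% interval -0.28 to 0.12, limma adjusted p = 0.778), and -0.17 without PRKO pool 3 and -0.02 without PRKO pool 4.

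Paqr5 (mPR gamma) had nearly the same mean in both genotypes. The values were 6.32, 6.31, 6.58, 6.51 and 6.39 in PR+/- and 6.54, 6.31, 6.49, 6.54 and 6.31 in PRKO, with means of 6.42 ± 0.12 and 6.44 ± 0.12 (SD, n = 5 pools each). Both genotypes covered almost the same range. The log2 difference of 0.02 had a 95% interval from -0.15 to 0.19 (limma adjusted p = 0.960).

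Paqr6 (mPR delta) read 6.63, 6.73, 7.20, 6.87 and 6.74 in PR+/- pools 1 to 5 and 6.64, 6.94, 6.77, 6.69 and 6.45 in PRKO pools 1 to 5. PR+/- pool 3 was the highest and PRKO pool 5 the lowest, with all others between 6.63 and 6.94. The log2 difference was -0.14 (SE 0.11, limma adjusted p = 0.665). With 1 pool left out it ran from -0.20 to -0.05, and was -0.05 without PR+/- pool 3 and -0.08 without PRKO pool 5. Both genotype means of all 6 receptors were above the olfactory receptor level of 5.86, Paqr5 and Paqr6 by the smallest margins, and changes of transcripts near background are understated on arrays.

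**Figure D2:**
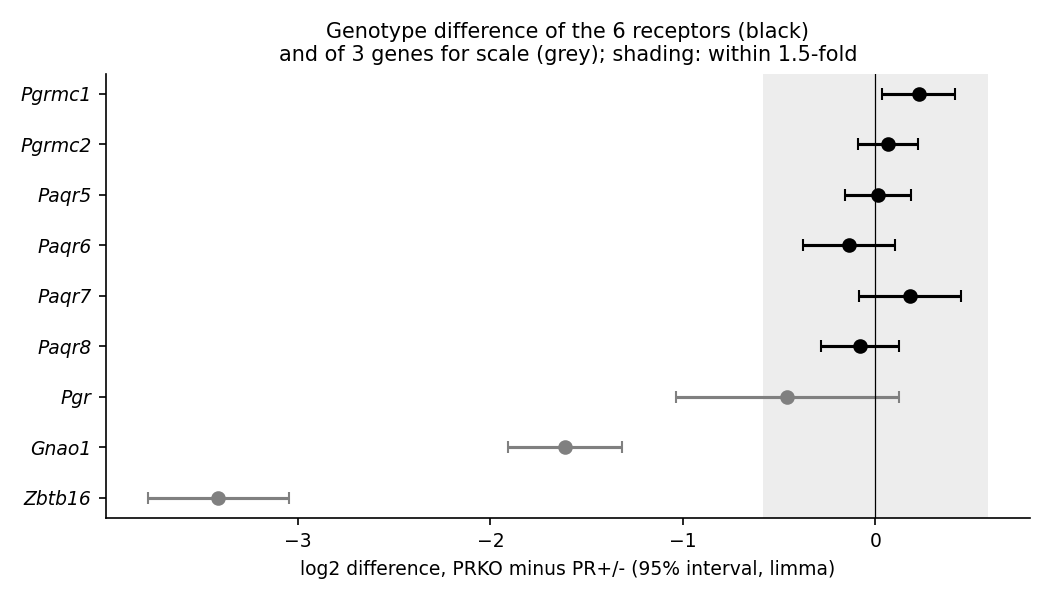
Log2 difference between PRKO and PR+/- with its 95% interval for the 6 receptors (black) and, for scale, Pgr, Gnao1 and Zbtb16 (grey). All 6 black intervals lie in the shaded zone of less than 1.5-fold change, whereas Gnao1 and Zbtb16 lie far to the left of it.

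The same arrays showed large differences elsewhere. As a scale, 8 genes were chosen because they are known to depend on the receptor at ovulation, from knowledge of this study among others. All 8 had a log2 difference below 0, with a median of -1.40. The threshold was passed by 7 of the 8 and by 2.46% of all genes. Zbtb16, a zinc finger transcription factor, had the largest log2 difference of the list (-3.41, SE 0.17). Pgr itself differed by -0.46 on the log2 scale, with a 95% interval from -1.04 to 0.12 (limma adjusted p = 0.527). Its difference was -0.26 without PR+/- pool 2, -0.60 without PR+/- pool 1 and -0.67 without PR+/- pool 3. In limma the last 2 had unadjusted p of 0.0437 and 0.0164 and adjusted p of 0.364 and 0.289. The sources used here do not say where the Pgr probes lie relative to the insertion, so Pgr checks no label. Of the other nuclear steroid receptors, 0 of the 4 measured differed, among them the glucocorticoid receptor Nr3c1 (0.04, SE 0.10) and the estrogen receptor Esr1 (-0.10, SE 0.10).

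Around the membrane receptors, the relatives, partners and signalling genes were described by lists of names. The remaining MAPR proteins, neudesin (Nenf) and neuferricin (Cyb5d2), had log2 differences of 0.15 and -0.09 and did not pass (limma adjusted p = 0.613 and 0.567). Of the 7 other PAQR genes, 4 had a difference above 0 and 3 below, with a median of 0.04. Over all genes, 2.46% passed the threshold and 0.752% did so with higher values in PRKO. Among the 7, 1 passed with lower values in PRKO, and 0 passed with higher. The gene that passed was Adipor2, a receptor for adiponectin. It read 10.93, 10.77, 10.77, 10.80 and 10.78 in PR+/- pools 1 to 5 and 10.27, 10.43, 10.20, 10.24 and 10.54 in PRKO pools 1 to 5, with no overlap. Adipor2 was 1.39-fold lower in PRKO (95% interval 1.24 to 1.56, log2 difference -0.48, SE 0.08, limma adjusted p = 0.00315). Paqr9, which human studies also place among the progestin-responsive mPRs as mPR epsilon, had a log2 difference of 0.25 (SE 0.11, limma adjusted p = 0.318), with 3 of 5 PRKO pools above all controls. Mmd2 and Mmd had 0.15 and 0.10.

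Of the proteins that bind PGRMC1, 6 of 7 listed were measured, and all 6 had a difference above 0, with a median of 0.16. Only Scap passed. It encodes the escort protein that carries sterol regulatory element binding proteins out of the endoplasmic reticulum. Scap read 10.32, 10.35, 10.29, 10.37 and 10.25 in PR+/- and 10.73, 10.81, 10.63, 10.47 and 10.72 in PRKO, so every PRKO pool lay above every control. Scap rose 1.28-fold (95% interval 1.15 to 1.43, limma adjusted p = 0.0173). That call was not kept when PR+/- pool 5 was left out (limma adjusted p = 0.0530) or when PRKO pool 1 was (0.0549). Tmem97, the sigma-2 receptor, which has been found in a complex with PGRMC1, had a log2 difference of 0.22 (SE 0.10, limma adjusted p = 0.343). The sterol demethylase Cyp51 and the heme-making ferrochelatase Fech both stood at 0.16. With the array background as a covariate, the differences were 0.33 for Scap, 0.15 for Tmem97, 0.06 for Cyp51 and 0.04 for Fech. Serbp1, the RNA-binding partner of PGRMC1 in granulosa cells, named after its value was seen, had 0.12 (SE 0.09, limma adjusted p = 0.628).

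In the list of G protein subunits, adenylyl cyclases and adaptors linked to the PAQR receptors, 16 of 18 genes were measured. For 2 of them, Gnaz and Adcy8, both genotype means were below the background of 5.86. The log2 difference was above 0 for 7 genes and below 0 for 9, with a median of -0.03. Over all genes, 2.46% passed the threshold and 0.752% did so with higher values in PRKO. In this list 1 gene passed with lower values in PRKO, and 0 passed with higher. That gene, Gnao1, encodes the alpha subunit of the inhibitory G protein Go. In PR+/- pools 1 to 5 it read 9.15, 8.61, 9.31, 9.00 and 8.48, and in PRKO pools 1 to 5 it read 7.24, 7.32, 7.44, 7.14 and 7.36. All PRKO pools lay more than 1 log2 unit below the lowest control, and the PR+/- pools were the more spread. Gnao1 was 3.05-fold lower in PRKO (95% interval 2.49 to 3.75, log2 difference -1.61, SE 0.14, limma adjusted p = 9.35e-06), rank 35 by p among all genes. The inhibitory subunit gene Gnai1 had a log2 difference of 0.21 (SE 0.08, limma adjusted p = 0.284), and the adenylyl cyclases Adcy3 and Adcy7 had -0.23 and -0.22 (limma adjusted p = 0.285 and 0.216), none of them past the threshold.

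**Figure D3:**
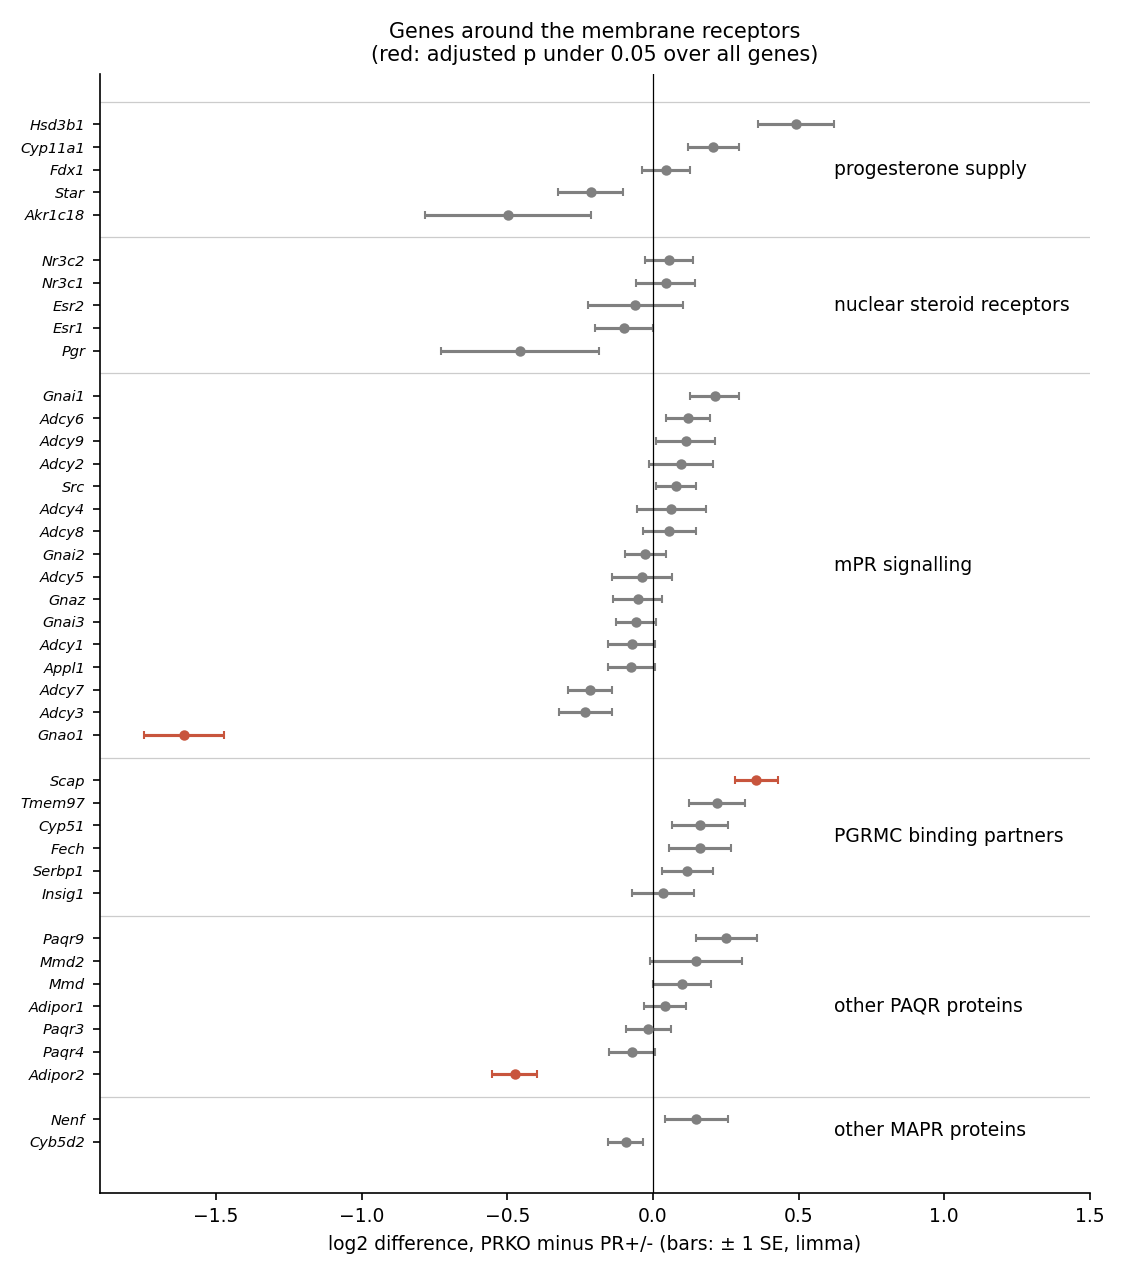
Log2 difference between PRKO and PR+/- with 1 SE to either side for the genes of 6 lists around the membrane receptors. Red marks the 3 genes past the threshold over all genes, Gnao1 and Adipor2 to the left of 0 and Scap to the right, and grey the rest.

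The transcripts that supply the ligand did not differ past the threshold. Of 5 measured genes of progesterone synthesis and clearance, 0 passed in limma and 2 had an unadjusted p under 0.05. Over all genes these shares were 2.46% and 13.0%. Hsd3b1, which makes progesterone from pregnenolone, had a log2 difference of 0.49 (SE 0.13, limma adjusted p = 0.0706), with 4 of 5 PRKO pools above all controls. Cyp11a1, which makes pregnenolone, had 0.21 and the cholesterol carrier Star -0.21. Akr1c18, which inactivates progesterone, had -0.50 with an SE of 0.29. Its difference was -0.29 without PR+/- pool 1 and -0.33 without PRKO pool 5. Without PR+/- pool 2 it was -0.67 (limma unadjusted p = 0.0317, adjusted p = 0.316).

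The receptors varied between pools in ways that the genotype did not set, and 21 pairs of the 6 receptors and Pgr were correlated over the 10 pools. Pgrmc2 and Paqr6 ran in opposite directions (Pearson r = -0.77, permutation p = 0.00517, Spearman rho = -0.81, permutation p = 0.00726), which did not pass over the 21 pairs (adjusted p = 0.109 and 0.152). Without PRKO pools 1 and 5, the farthest from the Pgrmc2 median, r was -0.65, without PR+/- pool 3 and PRKO pool 5, the farthest from the Paqr6 median, it was -0.53, and with values centred within genotype it was -0.74. Pgrmc1 and Paqr6 had r = -0.70 (permutation p = 0.0268) and rho = -0.59 (permutation p = 0.0810), with r = -0.43 without PR+/- pool 3 and PRKO pool 4. Pgrmc1 and Pgrmc2 had r = 0.61 (permutation p = 0.0598) and rho = 0.68 (permutation p = 0.0347), and Paqr5 and Paqr7 r = -0.63 (permutation p = 0.0408) and rho = -0.67 (permutation p = 0.0393). None of the 21 pairs passed, and the r of Pgr with the 6 receptors lay between -0.42 and 0.28.

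The receptors were also set against the background of the array, measured as the mean of the olfactory receptor genes, which ran from 4.14 to 4.32 in PR+/- pools and from 4.06 to 4.28 in PRKO pools. This comparison, with the granulosa and oocyte marker means beside it, gave 18 relations and was chosen after the data were seen. Only the relation of Pgrmc2 to the background passed over the 18. Pgrmc2 was higher in pools of lower background (r = -0.89, permutation p = 0.000450, adjusted p = 0.00810, rho = -0.89, permutation p = 0.00118, adjusted p = 0.0212), with r = -0.82 without PRKO pools 1 and 5 and -0.87 centred within genotype. Pgrmc1 had r = -0.72 and rho = -0.70 (permutation adjusted p = 0.116 and 0.180). Paqr6 ran with the background (r = 0.80, rho = 0.77, permutation adjusted p = 0.0527 and 0.112). Centred within genotype, r was -0.65 for Pgrmc1 and 0.76 for Paqr6. PR+/- pool 3 and PRKO pool 5 lay farthest from the median background. Without them, r was -0.79 for Pgrmc2, -0.49 for Pgrmc1 and 0.36 for Paqr6, so the Paqr6 relation leans on those pools. With the background as a covariate in limma, the log2 differences were 0.15 for Pgrmc1, -0.002 for Pgrmc2 and -0.01 for Paqr6, and the part of the background in these differences was not tested further. Paqr7 had r = 0.65 and rho = 0.65 with the granulosa marker mean (permutation adjusted p = 0.189 and 0.219), with r = 0.57 centred within genotype and 0.21 without PRKO pools 2 and 3. Paqr8 had r = 0.61 and rho = 0.47 (permutation adjusted p = 0.226 and 0.459), with r = 0.84 centred within genotype, 0.47 without PRKO pools 2 and 3 and -0.20 without PRKO pools 3 and 4. With the oocyte marker mean, Paqr6 had r = 0.57 and rho = 0.47 (permutation adjusted p = 0.259 and 0.459), and Pgrmc1 had r = -0.37 and rho = -0.49 (permutation adjusted p = 0.588 and 0.459).

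**Figure D4:**
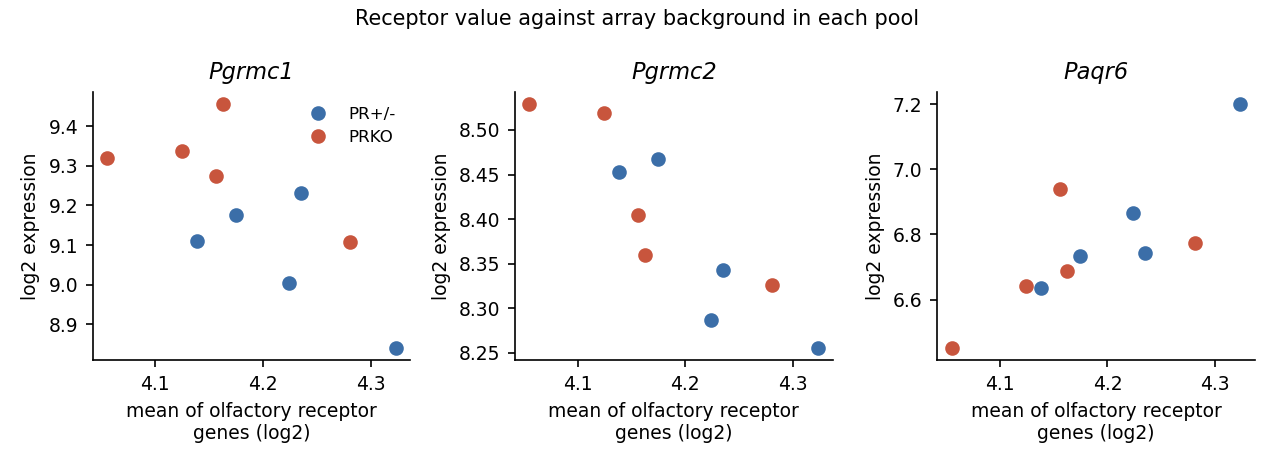
Log2 expression of Pgrmc1, Pgrmc2 and Paqr6 in each pool against the mean log2 value of olfactory receptor genes on the same array, PR+/- in blue and PRKO in red. Pgrmc2 falls along the axis in both genotypes (r = -0.89), and the rise of Paqr6 (r = 0.80) leans on PR+/- pool 3 at the upper right and PRKO pool 5 at the lower left.

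As a description, the 2 genes with the highest Pearson r to each receptor over the 10 pools were looked up among 17586 named genes. These r are the highest picked from that many genes over only 10 pools, and none was tested. For Pgrmc1 they were Slirp, a mitochondrial RNA-binding protein (0.95), and the ATP synthase subunit Atp5l (0.94). Caprin2 (0.94) and the phosphatase subunit Ppp2r3a (0.93) were nearest to Pgrmc2. Paqr5 had Insm2 (0.96) and Cdhr4 (0.94), and Paqr6 had Rbm46 and Pabpc1l (both 0.96), which are known as RNA-binding proteins of germ cells. The nearest to Paqr7 were the vomeronasal receptor Vmn2r15 and Grina (both 0.95), and to Paqr8 Pheta2 (0.92) and Carhsp1 (0.90). No gene was nearest to more than 1 receptor.

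**Figure D5:**
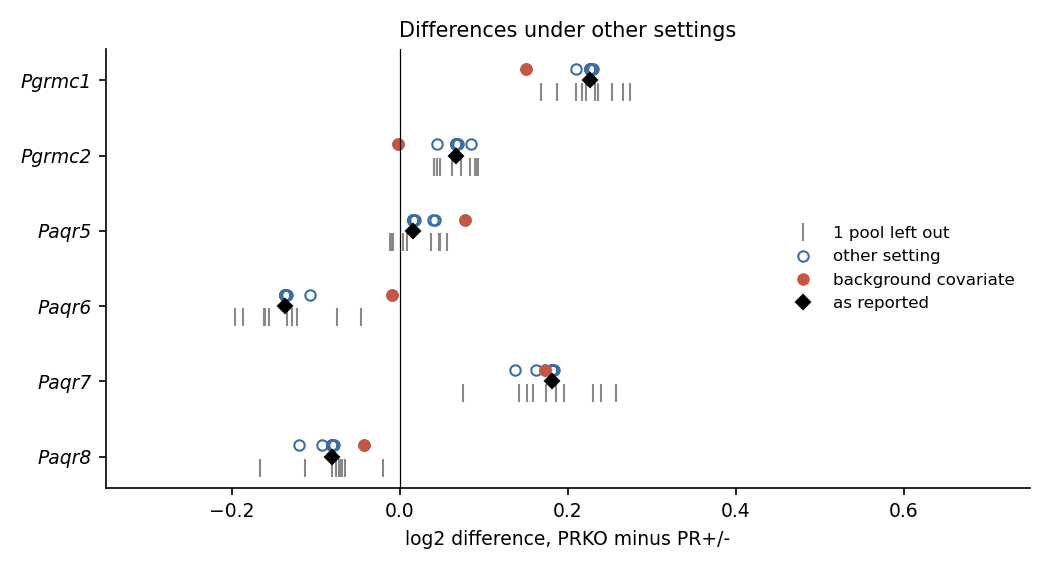
Log2 difference between PRKO and PR+/- of each receptor as reported (diamond), with 1 pool left out (ticks), under the other settings (open circles) and with the array background as a covariate (red). Pgrmc1 and Paqr7 stay to the right of 0 and Paqr6 and Paqr8 to the left in every setting drawn, and Paqr5 and Pgrmc2 reach both sides.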

How the data were processed

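The deposited values are log2 expression per probe set, made by the authors. The submitters' processing notes name Partek. The sources used here do not give its version, the background correction, normalization, summarization or genome build. Per the labels' protocols, RNA was taken with Tri Reagent and labelled as biotinylated cRNA. Of 35557 probe sets, 21789 had 1 gene symbol, 1621 several and 12147 none. Where a gene had several, that with the highest mean was kept, leaving 19938 genes. PRKO was compared with PR+/- across all genes with limma 3.58.1 in R 4.3.3, without a block, and adjusted by Benjamini-Hochberg. Correlations used 100000 permutations in Python 3.11.15. The pipeline was tested on simulated data. Members, lists, tests and settings were chosen with earlier results of these data known. Genes were named by a rule: the 6 receptors, Pgr, every called member of a list and otherwise up to 4 with the smallest p, and the 2 genes most correlated with each receptor. Listed genes with no probe set of their own were not analysed here. Other settings were median centring, quantile normalization, removal of dim genes, other priors, array weights, a replicate block, other probe set rules, exact permutation, leaving out each pool and, added after seeing the data, the background covariate. Arrays have no read depth, so the number of pools limits the precision.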

Additional observations from a re-analysis of the deposited data

Results flagged for a closer look

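In 4 of 70 groups of 5 pools examined (35 named genes in each genotype), 1 pool lay apart from the rest by Dixon's test at its 95% critical value, which chance alone does in about 1 group in 20. None of the 4 was in one of the 6 membrane progesterone receptors. Adipor2 read 10.93 in PR+/- pool 1, where the other controls lay between 10.77 and 10.80. Mmd2 read 7.27 in PR+/- pool 2, the other controls lying between 6.82 and 6.89. Adcy7 read 7.09 in PRKO pool 4, the other PRKO pools lying between 6.78 and 6.85. Snap25, of the genes used as a scale, read 6.39 in PRKO pool 3, the others lying between 6.87 and 6.99.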

How the results depend on the processing

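The count of receptors past the threshold was 0 under every setting run, with adjusted p from 0.150 to 0.994. Under exact permutation that count says nothing, since even the smallest p the design allows had an adjusted p of 0.180. Of the 6 log2 differences, those of Pgrmc1, Paqr6, Paqr7 and Paqr8 kept their sign under all 21 alternatives. Paqr5 ran from -0.012 to 0.056 with 1 pool left out, below 0 when the pool was number 1 or 2 of PR+/- or number 1 or 4 of PRKO, and Pgrmc2 was -0.0019 with the background covariate. The highest upper bound of any 95% interval was 1.43-fold (Paqr7). Calls over all genes numbered 491, 360 to 488 with 1 pool left out, 258 at an adjusted p under 0.01 and 220 with a fold of at least 1.5 as well. The list of PGRMC1 binding partners had 0 or 1 call with 1 pool left out, through Scap. The ligand supply list had 0 to 1 with 1 pool left out, and 1 (Hsd3b1) under quantile normalization, array weights or the replicate block. The labels do not say whether the replicate numbers pair the pools. Same-numbered deviations correlated from -0.10 to 0.32. PRKO pools 1, 2 and 3 correlated best with the PR+/- pool of their own number (r = 0.17, 0.22 and 0.32). PRKO pools 4 and 5 correlated best with PR+/- pool 1 (0.14 and 0.33). These values cannot settle whether the pools were paired. With the replicate block there were 529 calls over all genes, and Hsd3b1 had a difference of 0.49. Pgrmc1 then had an unadjusted p of 0.0134 and an adjusted p of 0.186 in limma. With the background covariate, the signs of Esr1 (0.0119) and Nr3c1 (-0.0172) turned, and with 1 pool left out Nr3c1 ran from -0.0020 to 0.124 and Nr3c2 from -0.0097 to 0.0871. The causes of these shifts were not tested. With 5 pools a genotype, changes smaller than the intervals were not resolvable for any receptor.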
